A study of Glycine max with 20 samples.

Results

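The cyclin genes of soybean were described in the seed coats of a standard isoline and of its minute hilum isoline. A gene was taken as a cyclin where the deposited annotation gave its model the cyclin N-terminal domain PF00134. Of the 88647 Glyma models in the table, 150 carried this domain, and they belonged to 91 of 56044 genes. Each gene was represented by its model with the highest mean RPKM over the 20 libraries. By the best Arabidopsis hit of the model, 21 genes were of the A type, 14 of the B type, 40 of the D type and 16 of other types. No expression difference entered this choice.

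RNA-Seq was carried out on seed coats of 2 isolines grown in the greenhouse. UC7 is Clark 63 (PI548532), and its genotype at the loci named is i-i, R, T, Mi and g. UC413 is the minute hilum line PI547628, which is i-i, R, t, mi and G. Because mi was moved into Clark 63 by backcrossing together with t and G, these 3 loci and the segments around them cannot be told apart here, and each genotype is 1 line. Both lines carry i-i and R. The extended hilum region (EH), dissected from around the hilum, had 2 libraries per isoline at EH10 (seeds of 10 to 25 mg), EH25 (25 to 50 mg) and EH50 (50 to 100 mg), and 1 per isoline at EH100 (100 to 200 mg). The whole seed coat (WS) had 1 library per isoline at WS10, WS25 and WS50, from seeds of 10 to 25, 25 to 50 and 50 to 100 mg.

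Cyclins are the regulatory subunits of cyclin-dependent kinases (CDKs). In plants, D type cyclins carry growth and hormone signals into the G1 phase and act through the retinoblastoma-related protein on E2F transcription factors. A type cyclins act mainly in S and G2 phases, and B type cyclins drive entry into mitosis, after which the anaphase-promoting complex (APC) marks them for breakdown. Transcripts of most A and B type cyclins accumulate only in dividing cells, so they are widely used as markers of proliferation. Cyclins H, T and L do not follow the cell cycle in this way: they belong to kinases that activate other CDKs or act on RNA polymerase II and on splicing. A seed coat grows first by cell division and later mostly by cell expansion. In RNA from a whole tissue piece, fewer dividing cells and less cyclin RNA per dividing cell cannot be told apart.

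Each library held 91768975 to 128803969 alignments, where a read counted once for every model it aligned to. Levels are given as normalized RPKM, which is RPKM divided by a size factor for the library. The size factor was used because a ribosomal DNA region took a large and unequal share of the alignments, at most 44.4% in UC7 EH10 replicate 1. Libraries were made with a stranded kit, except for replicate 1 of EH50 and all EH100 and WS50 libraries, which were made with an unstranded kit in both isolines. The replicates of UC7 EH25 correlated least across models (Pearson r = 0.936), against 0.971 to 0.982 in the other 5 groups. Of 23 seed coat marker genes, 17 reached 1 normalized RPKM in at least 2 libraries, and their summed level was 732 to 1201 over the 20 libraries. None of 33 endosperm marker genes did so, and their sum stayed between 0.0695 and 1.11, with 7 of them at 0 throughout. All 33 have AGL62 as their Arabidopsis symbol, so they stand for 1 marker, and the presence of endosperm was not tested. The sum of 33 embryo marker genes was 9.15 to 15 at EH10 and 53.6 to 86.5 at EH50, and it was 436 in UC7 and 155 in UC413 at EH100. At EH25 it was 84.3 in UC7 replicate 1, a library that stood apart from the other 3 with 15.9 to 37.7. Only 1 of the embryo markers, the LEC1 homolog Glyma.07G180300, was at 0 in every library.

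Most of the cyclin genes were expressed at low levels. In 32 of the 91 genes no library reached an RPKM of 1, in 24 genes all 20 libraries did, and 12 genes had at least 1 library without any alignment. The mean over the 12 libraries of EH10, EH25 and EH50 had a median of 0.909 normalized RPKM over the 91 genes. It reached 2.54 for the highest A type gene, 3.19 for the highest B type gene, 12.3 for the highest D type gene and 11.7 for the highest gene of the other types. A gene was tested where RPKM was at least 1 in at least 2 of the 12 EH libraries, which left 54 of the 91: 12 of the A type, 9 of the B type, 20 of the D type and 13 of other types. The 37 untested genes included all 4 genes of CYCD5;1, all 4 of CYCD7;1, the single CYCB1;1 gene and the single homologs of CYCJ18 and of SDS, a cyclin of meiosis in Arabidopsis. The Glyma.06G198800 and Glyma.06G199400 genes had the same number of alignments in each of the 20 libraries, at most 5, and could not be separated.

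The summed level of each type showed how differently the types behaved over seed growth. At EH10 the A and B type genes together summed to 48.2 and 57.9 normalized RPKM in UC7 and to 53.8 and 42.3 in UC413. At EH50 the same sum was 21.2 and 26.5 in UC7 and 21.9 and 25.6 in UC413. All 4 libraries of EH50 were therefore below all 4 of EH10, in both isolines. The highest sums were found in whole seed coats of the youngest seeds, with 97.4 in UC7 WS10 and 92.0 in UC413 WS10. The genes of the other types summed to between 77.2 and 93.3 in the 6 UC7 libraries of EH10 to EH50 and to between 99.6 and 113.7 in the 6 of UC413, with no fall over the stages.

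**Figure D1:**
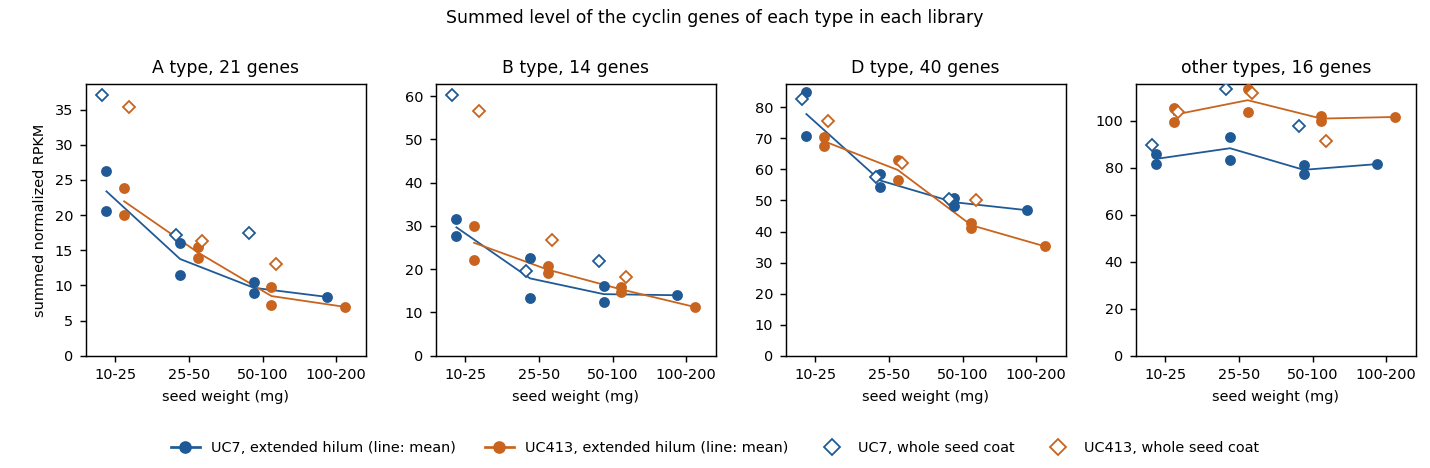
Summed normalized RPKM of all cyclin genes of each type (vertical axis, from 0) against seed weight in mg, 1 point per library, with filled circles for the extended hilum, open diamonds for the whole seed coat and lines through the means of the extended hilum. The A and B sums fell from EH10 to EH50 and were highest at WS10, the D sum fell less steeply, and the sum of the other types was level over the stages and higher in the UC413 extended hilum.

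The first question was how cyclin expression changed as the hilum region grew. From EH10 to EH50, averaged over the isolines, 29 of the 54 tested cyclin genes fell and 3 rose at an adjusted p under 0.05 (limma, Benjamini-Hochberg over all models). This contrast over the whole span was added after the values of its 2 steps had been seen. Among all 57568 models tested, 12.9% fell and 13.9% rose. The falling genes comprised 11 of 12 A type, 7 of 9 B type and 11 of 20 D type genes, and none of the 13 genes of other types was called in either direction. The median log2 difference was -1.38 for the A type, -1.38 for the B type, -0.53 for the D type and 0.01 for the other types, with 0.01 over all models. Since 6 of the 54 genes passed the filter on low values through 1 stage only, the count was also taken without them: 24 of the remaining 48 genes fell and 3 rose. Of the 6, the A type genes Glyma.04G043600, Glyma.06G072900, Glyma.14G128800 and Glyma.14G154200 and the B type gene Glyma.08G234900 were called lower. The D type gene Glyma.18G145600 was not called. The counts and medians by type include all 6, so they lean on genes that the filter admitted through 1 stage. Over the same span 16 of 17 tested embryo marker genes rose and none fell, and the part of this in the cyclin result was not tested. Single seed coat markers moved in both directions over this span, as given above, and their part was not tested either.

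The 4 tested genes of CYCB1;2, a B1 cyclin of the transition into mitosis, were among the members with the steepest falls. Of these, Glyma.02G277600 had 4.23 and 4.56 normalized RPKM at UC7 EH10 and 3.89 and 2.70 at UC413 EH10. At EH25 it had 1.42 and 3.04 in UC7 and 2.51 and 2.30 in UC413. At EH50 its level was 0.705 and 1.49 in UC7 and 0.563 and 1.16 in UC413. The lowest library of EH10 was above the highest of EH50, and the isolines overlapped at EH25 and EH50. Its log2 difference from EH10 to EH50 was -1.78 ± 0.27 (SE, n = 4 libraries per stage), a fold of 0.292 (limma adjusted p = 0.00103). The single EH100 libraries continued at this low level, with 0.546 in UC7 and 0.530 in UC413.

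The other 3 of these genes followed the same course. The log2 difference from EH10 to EH50 was -2.13 ± 0.28 for Glyma.03G123600, -1.98 ± 0.25 for Glyma.19G127200 and -1.92 ± 0.27 for Glyma.14G037100 (limma adjusted p = 0.000514, 0.000348 and 0.00067). Glyma.03G123600 and Glyma.19G127200 had similar levels in each library, as did Glyma.02G277600 and Glyma.14G037100. A read could be counted in up to 25 models, so near-identical copies such as these may share reads and are not independent measurements.

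CYCA1;1 is the A1 cyclin whose Arabidopsis transcript also peaks close to mitosis. Its homolog Glyma.04G246600 had 2.56 and 2.54 normalized RPKM at UC7 EH10 and 1.95 and 1.17 at UC413 EH10. At EH25 the values were 1.07 and 1.74 in UC7 and 1.21 and 1.18 in UC413. At EH50 they were 0.294 and 0.760 in UC7 and 0.164 and 0.433 in UC413. In each isoline replicate 1 of EH50, the library from the unstranded kit, was the lower one, as it also was for Glyma.02G277600. The fall from EH10 to EH50 was -1.83 ± 0.25 on the log2 scale (limma adjusted p = 0.000578), and all 4 libraries of EH50 were below the 4 of EH10. The similar copy Glyma.06G116100 fell by 1.79 ± 0.25 on the log2 scale (limma adjusted p = 0.000685). The highest A type gene, Glyma.17G204900 (CYCA2;2), changed much less: it had 2.34 to 3.45 normalized RPKM in the 4 libraries of EH10 and 1.77 to 2.65 in those of EH50. These ranges overlapped, the log2 difference was -0.37 ± 0.12 (limma adjusted p = 0.0427), and the call was lost in 9 of 12 fits that left out 1 library.

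CYCB2;3 split into pairs that moved in opposite directions. Glyma.06G000600, the B type gene with the highest mean RPKM over the 20 libraries, had 2.59 and 2.81 normalized RPKM at UC7 EH10, 2.35 and 2.23 at UC413 EH10, and 1.87 to 2.61 at EH25. At EH50 it had 4.29 and 3.90 in UC7 and 6.07 and 5.25 in UC413, so that each EH50 library was above every EH10 and EH25 library. It rose from EH25 to EH50 by 1.05 ± 0.12 on the log2 scale (limma adjusted p = 0.000811), and from EH10 to EH50 by 0.89 ± 0.12 (limma adjusted p = 0.000597). At EH100 it stood at 6.54 in UC7 and 4.20 in UC413. Its similar copy Glyma.04G001100 rose from EH25 to EH50 by 0.78 ± 0.17 (limma adjusted p = 0.0197), from 1.12 to 1.88 normalized RPKM at EH25 to 2.05 to 3.57 at EH50. By contrast Glyma.11G084500, which has the same best hit, dropped by 0.81 ± 0.16 from EH25 to EH50 (limma adjusted p = 0.0125), from 2.14 to 2.63 normalized RPKM to 0.867 to 1.84. The calls on Glyma.04G001100 and Glyma.11G084500 were both lost with the library kit as a covariate, with stranded libraries only and without replicate 1 of EH50 of either isoline, while that on Glyma.06G000600 was kept with the kit as a covariate.

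The D type genes were the most uneven group. Both tested genes of CYCD6;1, a D cyclin known in the Arabidopsis root for formative divisions, fell steeply. Glyma.12G199300 had 2.32 and 4.04 normalized RPKM at UC7 EH10 and 2.52 and 2.03 at UC413 EH10, and 1.27 to 2.11 at EH25. At EH50 it had only 0.427 and 0.419 in UC7 and 0.449 and 0.312 in UC413. The 4 libraries of EH50 were close together and far below the other 8. The log2 difference was -2.15 ± 0.19 from EH10 to EH50 and -1.57 ± 0.19 from EH25 to EH50 (limma adjusted p = 5.52e-05 and 0.00115), the largest fall among the cyclins in either contrast. Glyma.13G303000 fell by 1.72 ± 0.17 on the log2 scale from EH10 to EH50 (limma adjusted p = 8.15e-05), and the EH25 to EH50 calls on both genes were kept under every alternative run.

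CYCD3 cyclins link cytokinin to cell division in Arabidopsis. Glyma.17G167700 (CYCD3;2) had 5.21 and 5.29 normalized RPKM at UC7 EH10 and 2.98 and 2.77 at UC413 EH10, 1.13 to 3.05 at EH25 and 0.712 to 1.24 at EH50. It dropped by 1.80 ± 0.18 on the log2 scale from EH10 to EH50 (limma adjusted p = 0.00011). Glyma.05G097300, with the same best hit, dropped by 1.77 ± 0.16 over the same span (limma adjusted p = 6.02e-05). The most abundant D type genes, the similar CYCD3;1 copies Glyma.10G263500 and Glyma.20G126700, declined more gently. Glyma.10G263500 had 12.5 to 17.2 normalized RPKM at EH10 and 7.32 to 10.4 at EH50, without overlap, and its log2 difference was -0.77 ± 0.12 (limma adjusted p = 0.0014). Glyma.20G126700 had 10.9 to 13.8 at EH10 and 5.62 to 9.44 at EH50, with a log2 difference of -0.77 ± 0.11 (limma adjusted p = 0.000641).

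A few D type genes went the other way. Glyma.08G280600 (CYCD4;1) had 0.446 to 0.889 normalized RPKM at EH10, 0.578 to 1.39 at EH25 and 1.05 to 2.02 at EH50. The EH50 libraries were all above those of EH10, and the log2 difference was 0.83 ± 0.13 (limma adjusted p = 0.0012). Glyma.10G256200 (CYCD1;1) rose by 0.69 ± 0.15 from EH10 to EH50 (limma adjusted p = 0.00741), with 0.562 to 1.16 at EH10 and 1.34 to 1.77 at EH50. In Arabidopsis, both of these D cyclins are known from the onset of divisions in germinating seeds.

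**Figure D2:**
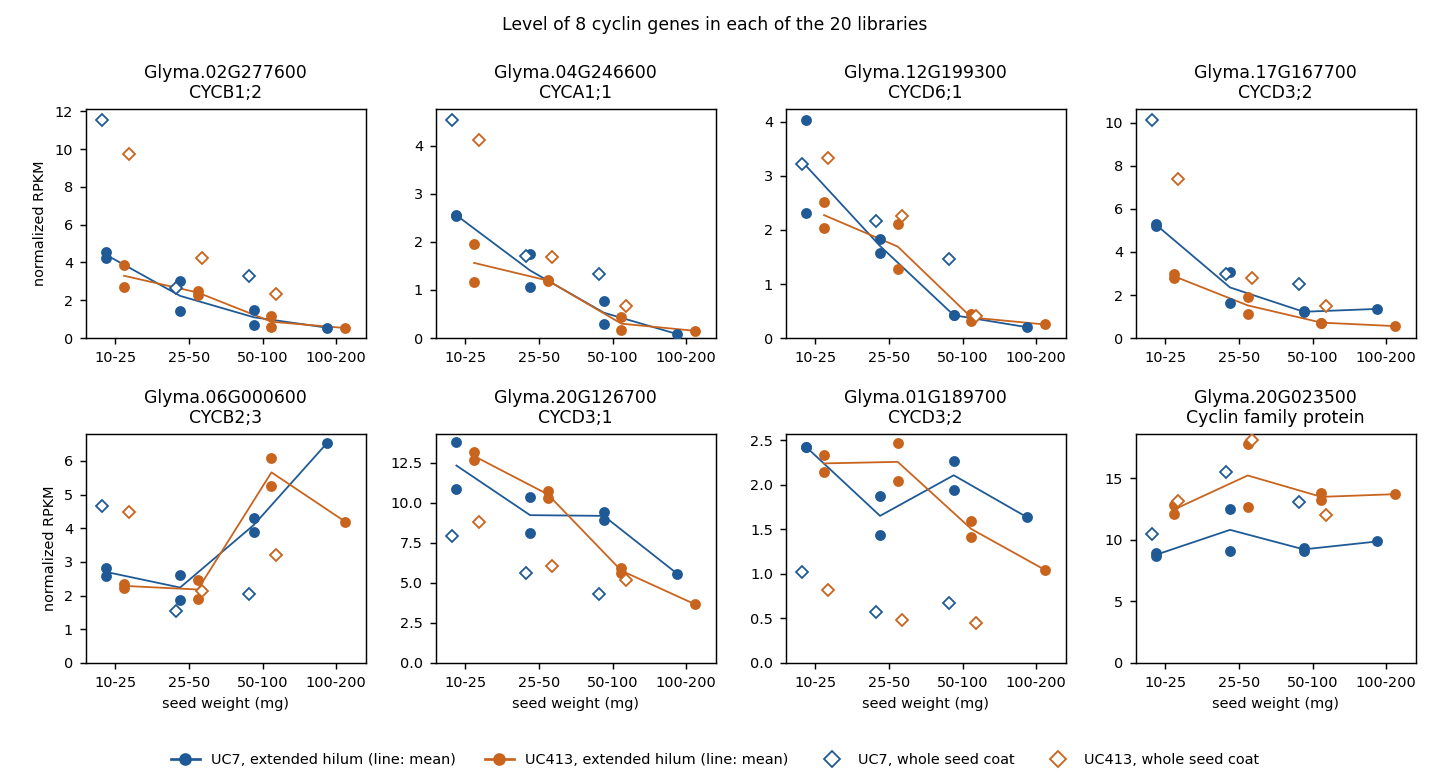
Normalized RPKM (vertical axis, from 0) of 8 named cyclin genes against seed weight in mg, 1 point per library, with filled circles for the extended hilum, open diamonds for the whole seed coat and lines through the extended hilum means. In the upper panels 4 genes fall from EH10 to EH50. In the lower panels Glyma.06G000600 is higher at EH50 and EH100 than at EH10 and EH25, Glyma.20G126700 and Glyma.01G189700 are higher in the extended hilum than in the whole seed coat of the same isoline and stage, and Glyma.20G023500 is higher in UC413 than in UC7 at each stage of the extended hilum, narrowly so at EH25.

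The 2 steps of this change were less certain than the whole span. From EH10 to EH25 only 2 cyclins were called, both lower (Glyma.05G097300, -1.02 ± 0.16, and Glyma.17G167700, -1.0 ± 0.18, limma adjusted p = 0.0232 and 0.0354), and none was higher. Of all models 0.135% were lower and 1.14% higher. At an unadjusted p under 0.05, 25 cyclins were lower and 1 was higher, and all 12 A type and all 9 B type genes tested had a log2 difference below 0. No share of all models at the unadjusted threshold is given, so this count has no background to be read against. At an adjusted p under 0.05, leaving out UC7 EH25 replicate 2 gave 14 lower and 1 higher, against 2 lower and none higher with all libraries. For this and the other alternative fits below, no share of all models is given. UC7 EH25 replicate 2 was above replicate 1 for the B1 and A1 genes given above. The highest embryo marker sum of EH25 and the lowest summed level of A and B type genes (24.7 against 33.1 to 38.5) were both found in UC7 EH25 replicate 1. Without it 1 cyclin was called lower and none higher from EH10 to EH25, and the part of the embryo markers in this was not tested. From EH25 to EH50, 16 cyclins were lower and 3 higher, against 5.96% lower and 5.34% higher of all models. The lower ones were 2 A type, 6 B type and 8 D type genes. This count depended on the libraries of the unstranded kit: with the kit as a covariate 2 genes were lower and 1 higher, and with stranded libraries only the counts were the same. Leaving out UC413 EH50 replicate 1 gave 4 lower and 1 higher, leaving out UC7 EH50 replicate 1 gave 7 and 1, and leaving out UC413 EH25 replicate 1 gave 5 and 2. Leaving out UC7 EH25 replicate 1 gave 20 lower and 3 higher. The fall over the whole span was kept by 26 genes with the kit as a covariate and by 24 with stranded libraries only.

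The second question was whether the hilum region differed from the whole seed coat. Averaged over the isolines and the 3 stages, 27 of 57 tested cyclins were lower in EH than in WS and 3 were higher, while 13.2% of 59783 models were lower and 14.2% higher. The lower genes were 9 of 13 A type, 7 of 10 B type, 9 of 21 D type and 2 of 13 genes of other types. The median log2 difference was -0.42 for the A type, -0.64 for the B type, -0.19 for the D type and -0.13 for the other types, against -0.01 over all models. As 3 of the 57 genes reached the filter in 1 region only, 26 lower and 3 higher remained among the other 54. With stranded libraries only, 19 were lower and 4 higher. In the same contrast 6 of 19 tested embryo markers were lower in EH and none was higher, and the part of this in the cyclin result was not tested. Whole seed coats had 1 library per isoline and stage. The spread therefore comes from the EH replicates and from how the EH minus WS difference varied between the isoline and stage groups.

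Several mitotic genes were higher in the whole seed coat. Glyma.02G277600 had 11.6 normalized RPKM in UC7 WS10 and 9.76 in UC413 WS10, above all 4 libraries of EH10. It had 2.67 and 4.24 at WS25, within and above the EH25 range, and 3.26 and 2.32 at WS50, above all 4 libraries of EH50. Its log2 difference, EH minus WS, was -1.11 ± 0.19 (limma adjusted p = 0.000872), and those of the other 3 tested genes with this best hit lay between -0.96 and -0.94. Glyma.06G116100 had a log2 difference of -0.81 ± 0.17 (limma adjusted p = 0.00267). It had 4.21 and 3.87 at WS10 and 1.19 to 2.35 at EH10.

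The D type genes divided between the regions. Glyma.01G189700 (CYCD3;2) had 2.14 to 2.42 normalized RPKM in the 4 libraries of EH10, 1.43 to 2.47 at EH25 and 1.41 to 2.27 at EH50. The whole seed coat libraries of WS10 held 1.02 (UC7) and 0.824 (UC413). Those of WS25 held 0.572 and 0.484, and those of WS50 0.678 and 0.453. All 12 EH libraries were above all 6 WS libraries. The log2 difference was 1.32 ± 0.09, a fold of 2.49 (limma adjusted p = 7.99e-07). Glyma.11G052500, with the same best hit, was also higher in EH, by 0.74 ± 0.11, and Glyma.20G126700 by 0.63 ± 0.09 (limma adjusted p = 0.000236 and 0.000299). For Glyma.20G126700 the 6 WS values ran from 4.34 to 8.84, and those of EH were higher than the WS library of the same isoline and stage in all 12 cases. Its copy Glyma.10G263500 had a log2 difference of 0.26 ± 0.09 that did not pass (limma adjusted p = 0.0572). The other CYCD3;2 genes went in the opposite direction: Glyma.17G167700 had a log2 difference of -0.86 ± 0.13 (limma adjusted p = 0.000257), with 10.2 and 7.41 at WS10 against 2.77 to 5.29 at EH10. Hence 4 genes with 1 best Arabidopsis hit were found on both sides of this comparison, 2 higher and 2 lower in the hilum region.

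Of CYCD1;1, 2 genes were called, and both were lower in EH. Glyma.20G135400 had 0.582 and 0.424 normalized RPKM at WS10, 1.01 and 1.40 at WS25 and 1.11 and 0.928 at WS50, whereas the 12 EH libraries lay between 0.112 and 0.571. Its log2 difference was -1.02 ± 0.15, and that of Glyma.10G256200 was -0.77 ± 0.10 (limma adjusted p = 0.000236 and 0.00012). Glyma.20G135400 passed the filter on low values in WS only. Glyma.04G092800 (CYCD4;1) was higher in all 6 WS libraries (4.40 to 6.37) than in the 12 EH libraries (2.36 to 4.15), at a log2 difference of -0.71 ± 0.08 (limma adjusted p = 3.94e-05). The 3 higher and the 10 most strongly lower genes kept their calls in each of 18 fits without 1 library.

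**Figure D3:**
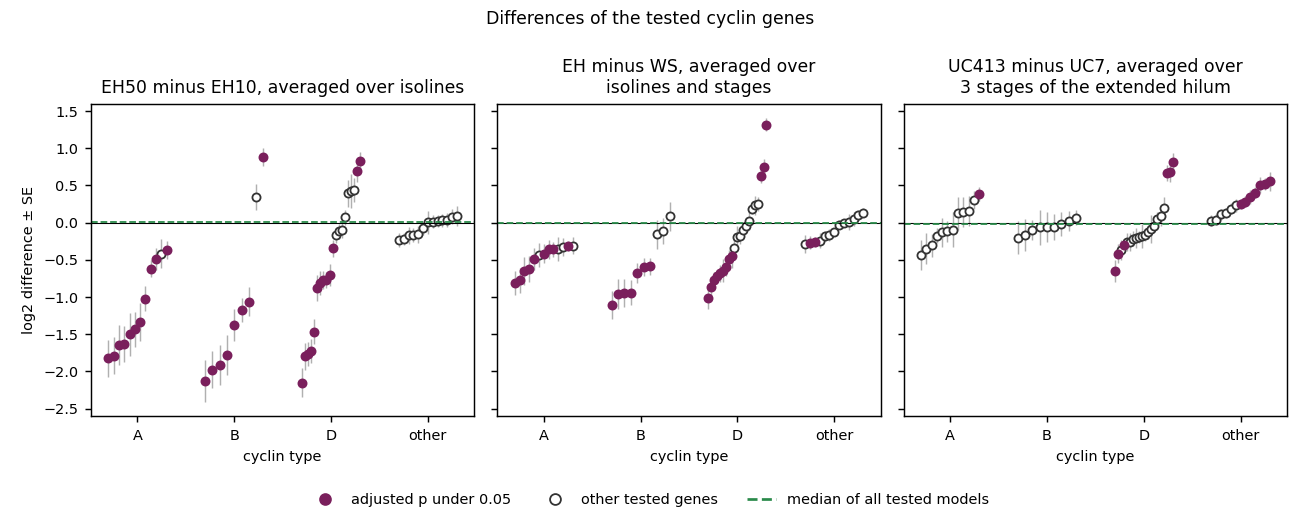
Log2 difference ± SE (vertical axis) of each tested cyclin gene, sorted within the A, B, D and other types, for EH50 minus EH10 (54 genes), EH minus WS (57 genes) and UC413 minus UC7 (54 genes), with filled points for an adjusted p under 0.05 and a dashed line for the median of all models tested. A and B type genes lie below 0 in the first and second panel with few exceptions, D type genes lie on both sides, and the genes of other types lie above 0 in the third panel.

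The third question was whether the minute hilum isoline differed from the standard one. At EH10 no cyclin was called in either direction by limma, and limma-voom on the recovered alignments called none, while 3.95% of all models were higher in UC413 and 2.41% lower. At an unadjusted p under 0.05, 8 cyclins were higher and 4 lower, with no share of all models given at that threshold. Same-numbered libraries of the isolines deviated together within a stage, but only at EH50 beyond the range seen between stages. With the number as a block within each stage, 4 cyclins were higher at EH10 (Glyma.07G223700, Glyma.18G133100, Glyma.20G023500 and Glyma.20G023800) and Glyma.10G256200 was lower. Of all models 5.78% were higher and 5.18% lower with the block. At EH25 again no cyclin was called by either tool, while 1.46% of all models were higher and 0.747% lower. At an unadjusted p under 0.05, 9 cyclins were higher and none lower, again with no such share given. With the block Glyma.20G023500 was higher and none lower, against 2.16% and 1.53% of all models. At EH50, 3 cyclins (5.56% of 54) were higher in UC413 and 1 (1.85%) was lower, against 4.41% and 3.66% of all models, so the higher share was near the background. With the block 8 were higher and 2 lower (Glyma.04G042000 and Glyma.20G126700), against 6.34% and 7.08%. Without it, none of the 4 calls was kept when any EH50 library was left out, and none with stranded libraries only. Averaged over the 3 stages, 11 cyclins (20.4%) were higher in UC413 and 3 (5.56%) were lower, against 17.2% and 17% of all models, so the higher share was again near the background. With the block the counts were 12 and 5, against 20.3% and 23% of all models. Without it the higher ones were 1 A type, 3 D type and 7 other genes, and the 3 lower ones were of the D type. With stranded libraries only, 5 were higher and none lower. In this average 7 of 17 tested embryo markers were lower in UC413 and none was higher, and 5 of 15 seed coat markers were higher and 2 lower. Their part in the cyclin result was not tested.

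These counts depended on the scaling. With RPKM as deposited 28 cyclins were higher and none lower in the average over the stages, and with libraries set to an equal sum outside the ribosomal DNA region 20 were higher and 1 lower. At EH10 the 2 scalings gave 25 and 12 higher and none lower, and at EH25 they gave 3 higher each and none lower. At EH50 they gave 3 and 11 higher and none lower. The shares of all models called under these 2 scalings are not given, so the counts cannot be read against a background. They also moved the median of all models in the average to 0.42 and 0.21 on the log2 scale, from -0.02. The results below are therefore relative to the bulk of the models. The 3 lower calls were not stable to this choice: Glyma.04G042000 and Glyma.11G052500 had no call under either other scaling and turned to a small positive value with RPKM as deposited, and Glyma.17G167700 lost its call with RPKM as deposited.

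The genes outside the A, B and D types had a median log2 difference of 0.25 in favour of UC413, and all 13 tested ones were above 0. With RPKM as deposited their median was 0.71, and with an equal sum it was 0.50, above the median of all models in each case. Of these 13 genes, 6 have AT5G45190 as the best Arabidopsis hit and are annotated as cyclin family proteins without a symbol. The neighbours Glyma.20G023500 and Glyma.20G023800, which may share reads, are among them. Glyma.20G023500, the highest gene of the other types, had 8.65 and 8.94 normalized RPKM at UC7 EH10 against 12.8 and 12.1 at UC413 EH10. At EH25 it had 12.5 and 9.09 in UC7 and 17.7 and 12.7 in UC413, and at EH50 9.12 and 9.33 in UC7 and 13.8 and 13.2 in UC413. The isolines did not overlap at any of the 3 stages, although at EH25 they were separated only by the difference of 12.5 and 12.7. Its log2 difference was 0.50 ± 0.10, a fold of 1.42 (n = 6 libraries per isoline, limma adjusted p = 0.00605). At EH100 it had 9.87 in UC7 and 13.7 in UC413. In whole seed coats the order was not the same at each stage: UC413 exceeded UC7 at WS10 (13.2 against 10.5) and WS25 (18.1 against 15.5), but not at WS50 (12 against 13.1).

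Glyma.20G023800 was higher in UC413 by 0.52 ± 0.08 and Glyma.07G223700 by 0.56 ± 0.13 (limma adjusted p = 0.00193 and 0.00894). The fourth called gene with this hit, Glyma.08G168800, was higher by 0.28 ± 0.07 (limma adjusted p = 0.0179). Glyma.10G158100 is a homolog of RCY1, an arginine-rich cyclin of the L type. It had 7.17 and 7.72 normalized RPKM in UC7 and 9.46 and 9.77 in UC413 at EH10, 7.81 and 6.64 against 9.96 and 9.09 at EH25, and 5.76 and 6.37 against 7.86 and 9.04 at EH50. The UC413 libraries were the higher ones at each stage, by 0.40 ± 0.07 on the log2 scale (limma adjusted p = 0.00363). The other RCY1 homolog, Glyma.20G230500, had the smallest of the 11 higher differences, 0.25 ± 0.07 (limma adjusted p = 0.0196). Glyma.20G143800 is a homolog of CYCT1;4, a partner of the kinase that releases RNA polymerase II into elongation. It was higher in UC413 by 0.35 ± 0.09 (limma adjusted p = 0.018). The calls on Glyma.08G168800 and Glyma.20G143800 were each lost in 3 of 12 fits that left out 1 library, and with stranded libraries only.

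Glyma.06G164600 and Glyma.17G201300 are the homologs of CYCH;1, the cyclin of the CDK-activating kinase. They stayed nearly level: Glyma.06G164600 had 7.64 to 9.35 normalized RPKM in the 12 EH libraries and 8.16 to 9.48 in the 6 WS libraries. These genes were not picked by the rule for named genes and were chosen after their values had been seen. No gene of the other types was called between EH10 and EH50.

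Among the D type genes, 3 were higher in UC413. Glyma.18G145600 (CYCD2;1) had 0.307 and 0.287 normalized RPKM at UC7 EH10 against 0.465 and 0.440 at UC413 EH10. At EH25 it had 0.188 and 0.213 against 0.467 and 0.822, and at EH50 0.325 and 0.319 against 0.994 and 0.963. The isolines did not overlap at any stage. The log2 difference was 0.81 ± 0.13 over the stages and 1.10 ± 0.23 at EH50 (limma adjusted p = 0.00207 and 0.0242). This gene and Glyma.18G133100 passed the filter on low values only through UC413 libraries. Glyma.08G280600 was higher by 0.67 ± 0.10 and Glyma.18G133100 (CYCD1;1) by 0.68 ± 0.14 (limma adjusted p = 0.0016 and 0.00629), and the isolines did not overlap at any stage for either gene. Without the 3 genes that passed the filter through 1 isoline, 9 higher and 3 lower calls remained among 51 genes. The A type gene Glyma.17G204900 was higher in UC413 by 0.38 ± 0.10 (limma adjusted p = 0.0139).

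On the other side, Glyma.17G167700 was lower in UC413, with 2.98 and 2.77 normalized RPKM at EH10 against 5.21 and 5.29 in UC7. At EH50 it had 0.712 and 0.721 against 1.24 and 1.20, while at EH25 the isolines overlapped. The log2 difference over the stages was -0.65 ± 0.15 (limma adjusted p = 0.00894). In the whole seed coat UC413 was the lower one as well, with 7.41 against 10.2 at WS10, 2.77 against 3.0 at WS25 and 1.51 against 2.50 at WS50.

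The difference between the isolines was also compared between EH50 and EH10. No cyclin was called by limma in either direction, as for all models (0% higher and 0% lower), and limma-voom called none. At an unadjusted p under 0.05, 3 cyclins had a larger and 1 a smaller value at EH50, with no share of all models given at that threshold. The smaller one was Glyma.20G126700, the only cyclin called lower in UC413 at EH50 without the block. Its isolines overlapped at EH10, with 10.9 and 13.8 normalized RPKM in UC7 and 13.2 and 12.7 in UC413, and at EH25, with 8.09 and 10.4 against 10.3 and 10.8. At EH50 it had 8.95 and 9.44 in UC7 but 5.91 and 5.62 in UC413, a log2 difference of -0.65 ± 0.15 (limma adjusted p = 0.0322). The change of that difference between the stages was -0.73 ± 0.21 on the log2 scale (limma adjusted p = 0.767), so it was not shown to differ between stages. The EH50 difference had no call under the other 2 scalings.

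**Figure D4:**
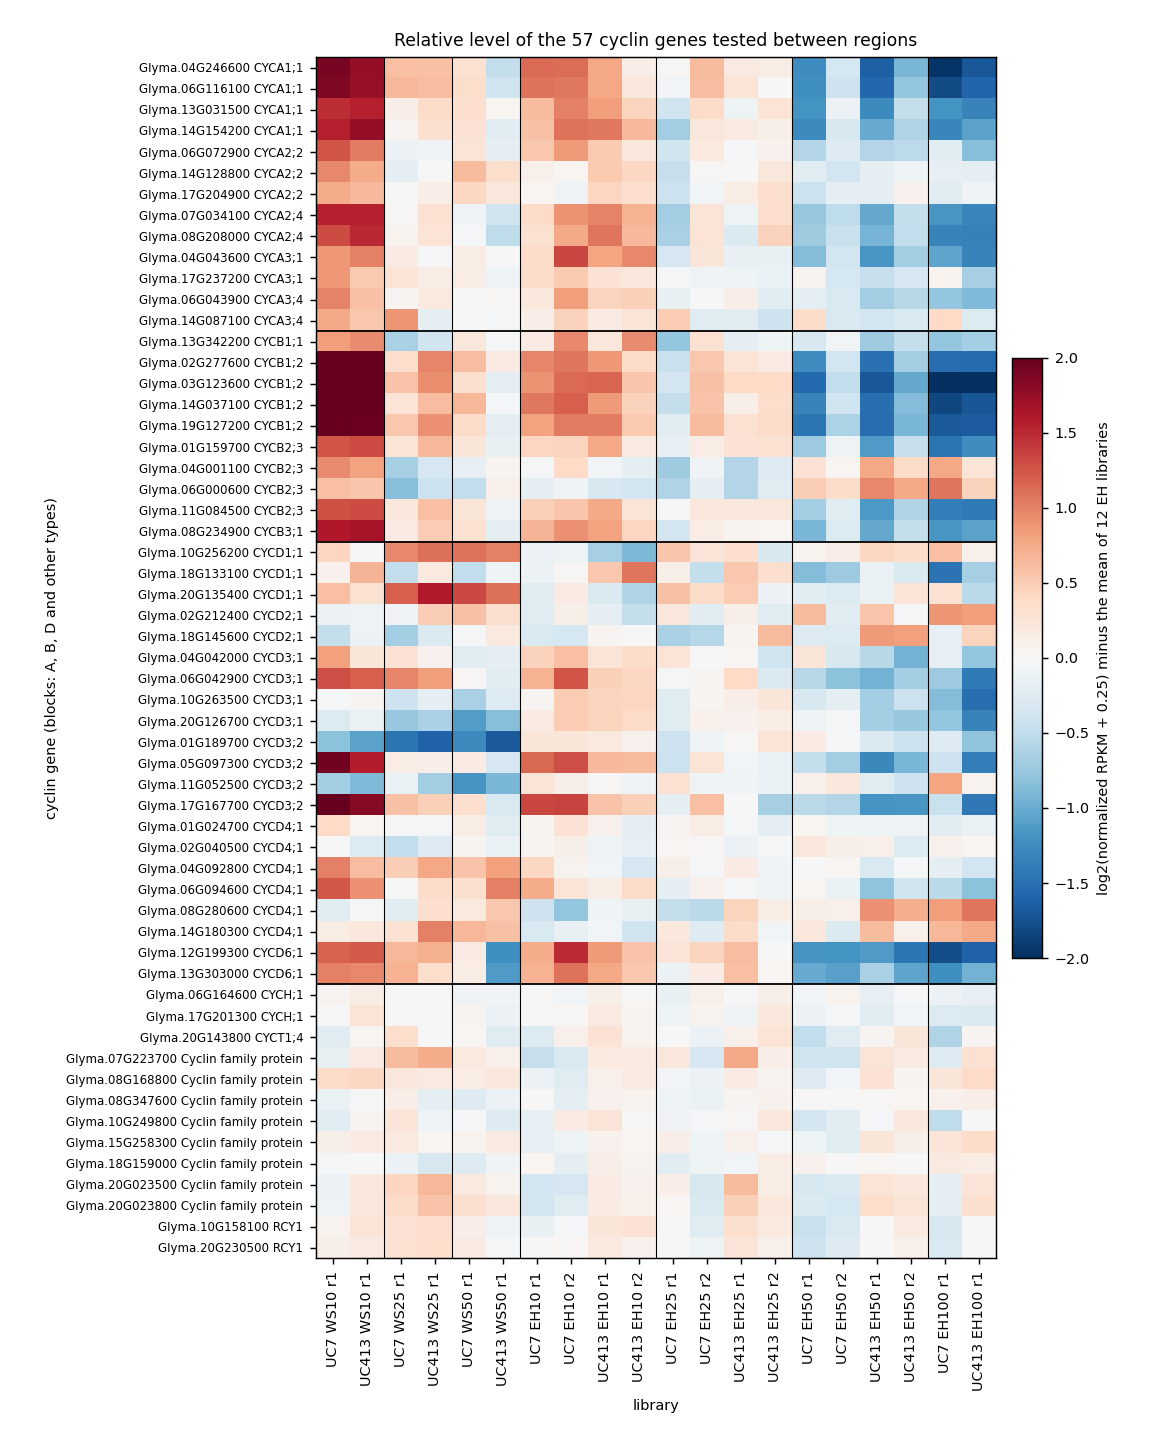
Log2(normalized RPKM + 0.25) of the 57 cyclin genes tested between regions, minus the mean of the 12 libraries of EH10, EH25 and EH50, with genes as rows in blocks of A, B, D and other types and libraries as columns (colour scale from -2 to 2, values beyond it shown at its ends). Most A and B type genes are red at WS10 and EH10 and blue at EH50 and EH100, the D type block is mixed, and the block of other types is pale throughout.

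Other genes of the cell cycle were counted for comparison, from lists set by protein domain or Arabidopsis symbol. From EH10 to EH50 all 5 tested genes of the mitotic CDKB kinases were lower (median log2 difference -1.94), while none of the 5 tested genes of CDKA, the kinase used throughout the cycle, was called (median 0.01). Of the genes for replication licensing, 27 of 33 were lower and 1 was higher (median -0.85), and both PCNA genes, the clamp of DNA polymerase, were lower (median -1.14). Lower levels were also found for 9 of 11 cytokinesis genes (median -1.57) and 11 of 15 genes of mitotic kinases and the spindle checkpoint (median -0.81). Of the regulators, 3 of 11 E2F and DP genes were lower and none of 3 retinoblastoma-related genes was called. The KRP inhibitors of CDKs had 1 of 8 genes higher, near the 13.9% of all models, and none lower. Of 7 APC activator genes 3 were lower, of 7 MYB3R factors 2 were lower and 1 was higher, and of the CKS docking subunits 1 of 2 was lower. Among all models 12.9% were lower and 13.9% higher over this span.

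In the comparison of the regions, all 5 CDKB genes were lower in EH than in WS (median -0.84), as were 27 of 33 licensing genes (median -0.43), 12 of 15 cytokinesis genes (median -0.74) and 11 of 17 genes of mitotic kinases and the checkpoint (median -0.45). No CDKA, CKS, PCNA or retinoblastoma-related gene was called, whereas 4 of 9 APC activators, 4 of 7 MYB3R and 2 of 11 E2F and DP genes were lower. The last share was near the 13.2% of all models. The P type cyclins, a related family with another domain (PF08613), went the opposite way: 6 of 8 tested genes were higher in EH and none was lower (median 0.53). The KRP inhibitors had 2 of 8 genes higher. Between the isolines, averaged over the stages, both CKS genes (median -0.44) and both PCNA genes (median -0.52) were lower in UC413, as were 4 of 15 genes of mitotic kinases and the checkpoint, with 1 higher, against 17% lower and 17.2% higher of all models. These calls depended on the scaling. With RPKM as deposited no CKS or PCNA gene was called and 2 genes of mitotic kinases and the checkpoint were higher and none lower, and with an equal sum 1 CKS gene was lower and no PCNA gene was called. None of the CDKB genes was called between the isolines (median -0.34).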

How the data were processed

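Per the study, RNA from extended hilum and whole seed coats was sequenced on an Illumina HiSeq2000, and the deposited RPKM values were made by the authors with Bowtie against Glyma cDNA models, with up to 3 mismatches and 25 alignments per read. The deposited model lengths served to recover whole alignments (100% of values within 0.01). After division by median-of-ratios size factors and addition of 0.25, values were put on the log2 scale. The models were then fitted by limma (version 3.58.1, with a variance trend) under R 4.3.3. The 12 EH libraries formed 6 groups in 1 fit, and the region was 1 term in a fit of 18 libraries with the 6 isoline and stage groups as blocks. EH100 entered no test. A model was tested where 2 or more libraries had an RPKM of 1 or more, and p-values were adjusted by Benjamini-Hochberg over all of them, with 0.05 as the threshold. The study describes the replicates as independent, and p-values measure the spread between them. For the region, p-values also measure how the EH minus WS difference varied between the groups. Fold changes are on the log2(value + 0.25) scale, which understates low genes.

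Members and lists were chosen with earlier results of these data known. Named genes were, for each comparison, every called cyclin up to the 10 largest in each direction, and the highest gene of each type. The SIAMESE inhibitors matched no gene. Alternatives were other scalings, pseudocounts of 1 and 0.05, filters, a replicate block, the library kit, the splice form with suffix 1, limma-voom, no trend and leaving out each library. Across models, the deviations of same-numbered libraries of the 2 isolines correlated at 0.193, 0.226 and 0.468 within EH10, EH25 and EH50. For the block, the numbers were taken to pair the isolines within a stage. Between stages the correlation ran from -0.425 to 0.233, and no pairing was taken there. The values of EH10 and EH25 lie within that range, so a pairing at these stages is not shown, and only EH50 stands apart. Apart from the kit shared by replicate 1 of EH50, the sources used here name nothing that pairs same-numbered libraries. Stranded libraries only and the EH50 minus EH10 contrast were added after seeing the data. Scripts were tested on simulated data. Tables used Python 3.11.15, pandas 2.3.3, numpy 2.4.6 and scipy 1.17.1, and figures matplotlib 3.10.9.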

Additional observations from a re-analysis of the deposited data

Results flagged for a closer look

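The EH100 libraries entered no comparison. Among the tested cyclins, 1 gene was at least 2 times higher in UC413 than in UC7 at EH100 with exact Poisson intervals that did not overlap. Glyma.18G133100 (CYCD1;1) had 0.363 normalized RPKM in UC413 (95% interval 0.300 to 0.434, 118 alignments) and 0.0977 in UC7 (0.0632 to 0.144), a ratio of 3.71. Other genes were at least 2 times lower in UC413, also with intervals that did not overlap. Glyma.17G167700 had 0.554 in UC413 (0.463 to 0.657) and 1.35 in UC7 (1.19 to 1.53). Glyma.05G097300 had 0.330 (0.257 to 0.417) and 0.887 (0.750 to 1.04), and Glyma.06G072900 had 0.241 (0.187 to 0.307) and 0.507 (0.416 to 0.612). Glyma.20G135400, tested between regions only, had 0.127 (0.0861 to 0.180) and 0.427 (0.339 to 0.530). The intervals cover counting error only, both libraries were made with the unstranded kit, and there was 1 library per isoline, so these differences were not tested.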

How the results depend on the processing

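Counts are given as higher plus lower calls, and no share of all models is given here for these settings. Leaving out 1 library gave 0 to 2 called cyclins between the isolines at EH10, 0 to 1 at EH25, 0 to 6 at EH50 and 10 to 16 in the average over the stages. It gave 0 to 15 for EH25 minus EH10, 5 to 23 for EH50 minus EH25, 29 to 32 for EH50 minus EH10, 0 to 0 for the change of the isoline difference and 22 to 33 for EH minus WS. With RPKM as deposited the isolines gave 25, 3 and 28 calls at EH10, EH25 and in the average, and with an equal sum 12, 3 and 11 at EH10, EH25 and EH50. Glyma.04G042000 and Glyma.11G052500 turned to 0.017 and 0.14 in the isoline average with RPKM as deposited. Without the low-value filter there were 3 and 2 calls at EH10 and EH25. A filter at RPKM 2, which tests fewer genes, gave 2 at EH50 and 19 for EH50 minus EH10. Without the variance trend there were 2 at EH25. With stranded libraries only, the isolines gave 0 calls at EH50 and 5 in the average, EH25 minus EH10 gave 1 and EH50 minus EH25 gave 3, as did the kit covariate for the last. The cause of these changes was not tested. A replicate block gave 1 call at EH25, and a replicate block within each stage gave 5, 1 and 10 at EH10, EH25 and EH50. The latter was not run for contrasts between stages, because the numbers are nested in the stages. It removed no call on a named gene between the isolines. It added calls on Glyma.20G023500 at EH10, EH25 and EH50 (limma adjusted p = 0.0308, 0.0497 and 0.0249). It also added a call on Glyma.06G000600 at EH50 (limma adjusted p = 0.0426). No paired analysis was possible for EH minus WS because WS had 1 library per group.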
